A study of Mus musculus with 6 samples.

Results

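The genes described here carry out and prepare DNA replication. They are 44 genes picked by symbol from a table of 20280 genes: the origin recognition complex, origin licensing factors, the MCM2-7 helicase and its activators, the sliding clamp and its loader, the replicative polymerases with primase, the single-strand binding protein, 2 genes of Okazaki fragment maturation and 3 genes of deoxynucleotide supply. All 44 symbols were found. RNA-seq had been made from whole mouse embryos of the inbred FVB/N strain at embryonic day 8.5, as 3 libraries of *Tip55*+/+ (wildtype) and 3 of *Tip55*Δ/Δ (*Tip55* knockout) embryos from intercrosses of heterozygotes. In the *Tip55* allele the introns near the end of *Kat5* are removed and the flanking exons are fused, so the *Tip55* isoform, which retains part of these introns, cannot be made while the other *Kat5* isoforms can. The allele is carried in every cell, and whether a library held 1 embryo or a pool is not stated in the sources used here.

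Replication starts at origins, where the origin recognition complex together with *Cdc6* and *Cdt1* loads the MCM2-7 helicase onto DNA in G1 phase. In S phase kinases and the GINS complex with *Cdc45* switch the helicase on, polymerases copy both strands behind it, and the *Pcna* ring, placed by replication factor C, holds them on the DNA. Many of these genes are known targets of E2F transcription factors, which act at the passage from G1 to S phase, and cells of the early embryo divide fast and express them abundantly.

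The deposited table sets the genotypes against each other once for every gene and gives no library alone, so each value below is a mean normalized count over 3 libraries of a genotype, recovered from a pair of ratios. The totals of the recovered means were 49138051 counts for *Tip55*+/+ and 47211544 for *Tip55*Δ/Δ. The depth and spread of single libraries are unknown, and differences were not tested here against the variation between embryos. The interval after a ratio (*Tip55*Δ/Δ over *Tip55*+/+) is an exact 95% interval (Clopper-Pearson) for counts added up over the 3 libraries of a genotype, and reflects counting error alone. In place of a call, a gene is said to have risen or fallen when its ratio was at most 0.8 or at least the inverse of 0.8, and this bound is called the fold below. Whole embryos were used, so fewer cells in S phase and less RNA per cell cannot be told apart.

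*Kat5*, the gene that was targeted, is on the minus strand of chromosome 19, from 5603014 to 5610237 (GRCm38). It had 2218 counts in *Tip55*+/+ against 1615 in *Tip55*Δ/Δ embryos, which is a ratio of 0.728 (interval 0.702 to 0.756). Every isoform of *Kat5* is summed in this value, which therefore does not check for the missing one. It shares 12.1% of its exon bases with *Rnaseh2c*, and the libraries were not strand specific.

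Because these genes are known as E2F targets, the letters of the E2F site were looked for in their promoters. RefSeq promoter windows on GRCm38.p6, from 250 bases before to 50 bases after the transcription start, were given for 36 of the 44 genes. The strings searched on both strands were TTTCCCGC, TTTCGCGC, TTTGCCGC and TTTGGCGC. Parts of 60 bases upstream of the start are printed below for 6 genes of origin recognition, licensing, the helicase and its activation, 5′ to 3′ on the strand of the gene, with the matched letters in capitals.
Cdc6: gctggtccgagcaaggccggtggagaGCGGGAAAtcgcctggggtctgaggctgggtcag
Orc3: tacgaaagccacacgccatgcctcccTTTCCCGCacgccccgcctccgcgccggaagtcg
Mcm5: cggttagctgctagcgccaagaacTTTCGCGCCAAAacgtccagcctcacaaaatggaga
Mcm6: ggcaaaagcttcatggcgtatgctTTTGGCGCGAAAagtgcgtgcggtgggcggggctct
Mcm7: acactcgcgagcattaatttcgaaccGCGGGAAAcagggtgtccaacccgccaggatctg
Gins3: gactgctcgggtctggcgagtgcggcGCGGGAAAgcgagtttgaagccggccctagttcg
These stretches are chr11:98907987-98908046 for *Cdc6* and chr8:75109332-75109391 for *Mcm5*, both on the plus strand. *Orc3* is shown from chr4:34614950-34615009, *Mcm6* from chr1:128359780-128359839 and *Mcm7* from chr5:138172015-138172074, all on the minus strand. The stretch of *Gins3* is chr8:95633492-95633551 on the plus strand. In *Mcm5* and *Mcm6* the capitals span 12 bases, in which a match of TTTCGCGC and one of TTTGGCGC on opposite strands overlap. The matches printed begin 138 bases before the start in *Cdc6*, 153 in *Mcm5*, 110 in *Mcm6*, 165 in *Mcm7*, 41 in *Orc3* and 41 in *Gins3*.

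E2F letters were present in the windows of 14 of the 36 genes (38.9%). Among all 27025 genes with a window the share was 2.60%, and among 5841 abundant genes, those whose mean reached 1000 counts, it was 5.77%. Upstream of the start alone, the letters were found for 9 of the 36 genes (25%) and for 4.79% of the abundant genes. Besides the 6 genes printed, the letters were found in the windows of *Cdt1*, *Lig1*, *Mcm3*, *Orc1*, *Pola1*, *Pold1*, *Pole2* and *Rfc3*. The letters CCAAT, the box bound by NF-Y, were in 23 of 36 windows (63.9%), against 43.3% of the windows of abundant genes. The ratios were similar with and without E2F letters: the median log2 ratio was −0.02 for the 14 genes with them and −0.01 for the 22 without, and for the abundant genes it was −0.02 with (337 genes) and −0.04 without (5504 genes). A match of letters is a description and no evidence that a factor binds there.

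All 44 genes were abundant in this sense, with means from 1054 for *Gins3* to 25222 for *Mcm7*. Relative to transcript length, *Pcna* was at the top in *Tip55*+/+ embryos with 13627 counts per kb, followed by *Mcm7* with 8967 and *Rrm2* with 8299. The other 5 subunits of the helicase lay between 4010 (*Mcm6*) and 5939 (*Mcm2*) counts per kb. The lowest levels were those of *Gins3* with 407 and of *Cdc7*, the kinase that fires origins, with 518 counts per kb. Levels differed far more between genes than between genotypes, as the plot of levels by role shows. Together the 44 genes held 0.663% of all counts in *Tip55*+/+ against 0.657% in *Tip55*Δ/Δ embryos.

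**Figure D1:**
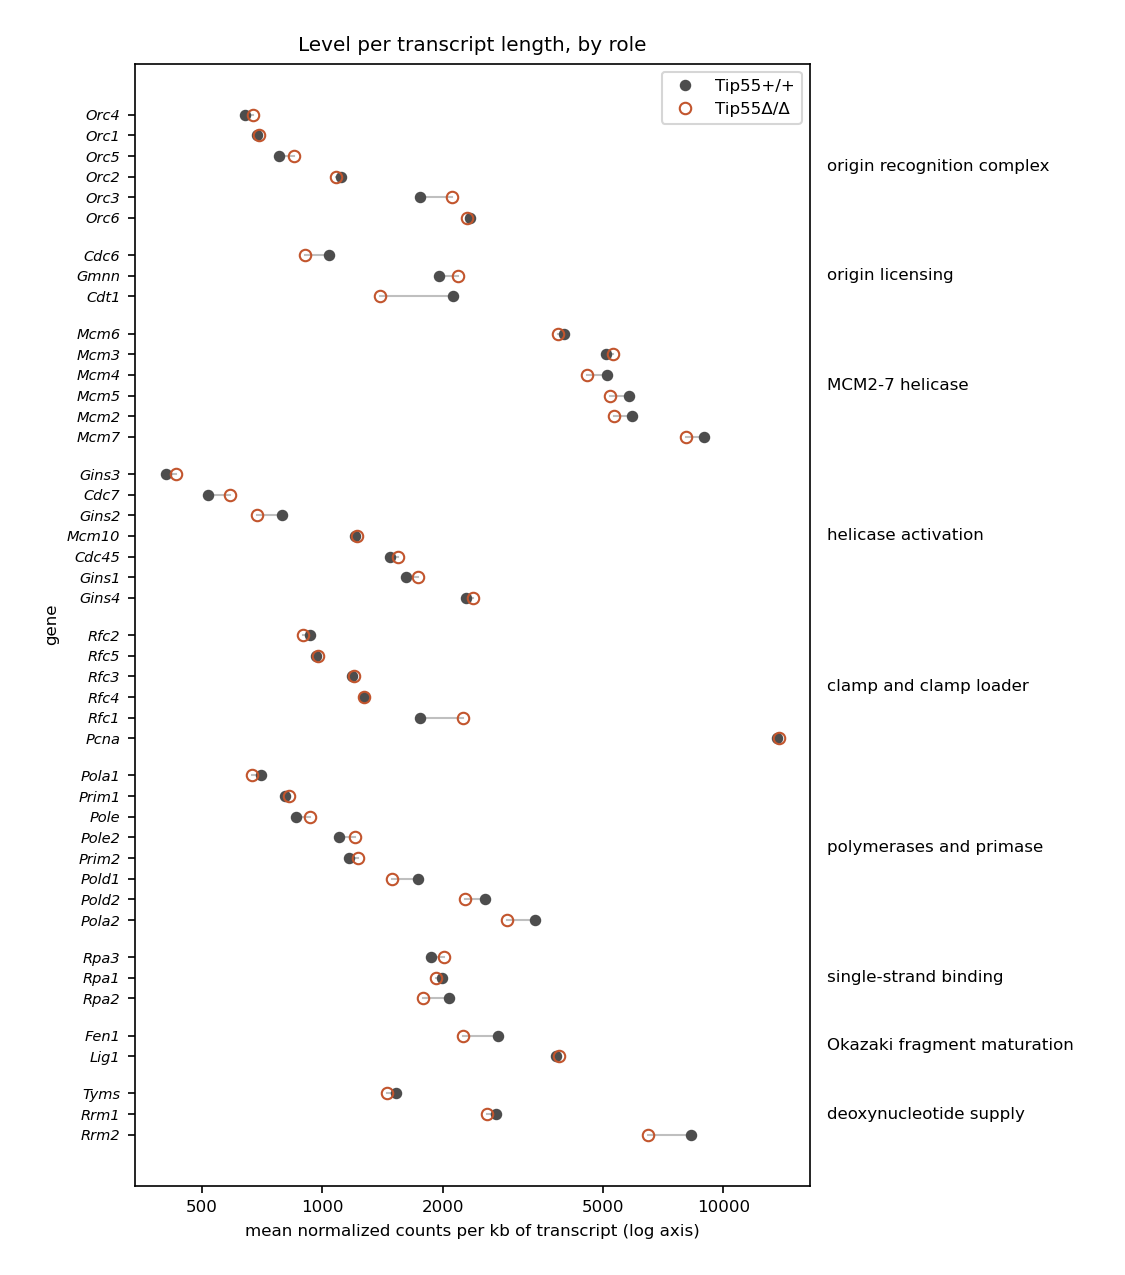
Level of each of the 44 replication genes in mean normalized counts per kb of the longest transcript (log axis), with filled points for the *Tip55*+/+ mean and open points for the *Tip55*Δ/Δ mean, grouped by role. *Pcna* (13627 in *Tip55*+/+) and the helicase subunits stand to the right of most genes, and the points of *Cdt1*, *Rrm2*, *Rfc1* and *Orc3* are visibly apart.

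The ratios of the replication genes centred close to 1, with exceptions in either direction: *Cdt1* and *Rrm2* fell and *Rfc1* rose. Of all 7575 abundant genes, 11.0% had fallen and 3.83% had risen, and when the minimum was 10 counts the shares were 14.7% and 15.6% of 15676 genes. With 2 of 44 genes lower and 1 of 44 higher, 6.82% of the replication genes were past the fold, against 14.8% of the abundant genes. The median log2 ratio of the 44 genes was 0.01, with 23 ratios over 1 and 21 under 1, and that of the 7575 genes was −0.04. Within 1.1-fold lay 27 of the 44 genes (61.4%) and 49.6% of the 7575.

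Counting error was small beside most of these differences. The interval lay under 1 for 20 genes and over 1 for 17, and it held 1 for 7. Of the 7575 genes, 49.4% had an interval under 1 and 35.0% one over 1, so an interval that excludes 1 is the common case at this depth. The totals of the genotypes differed by a ratio of 0.961. When both genotypes were scaled to equal totals, an alternative chosen after seeing the data, every log2 ratio moved up by 0.06 and the median of the 44 genes became 0.06. The fall of *Rrm2* then ended just short of the fold (ratio 0.815), and *Orc3* (log2 ratio 0.33) passed it. Differences of this size between genotypes therefore depend on this scaling of the genotypes, while the differences of replication genes from each other do not.

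**Figure D2:**
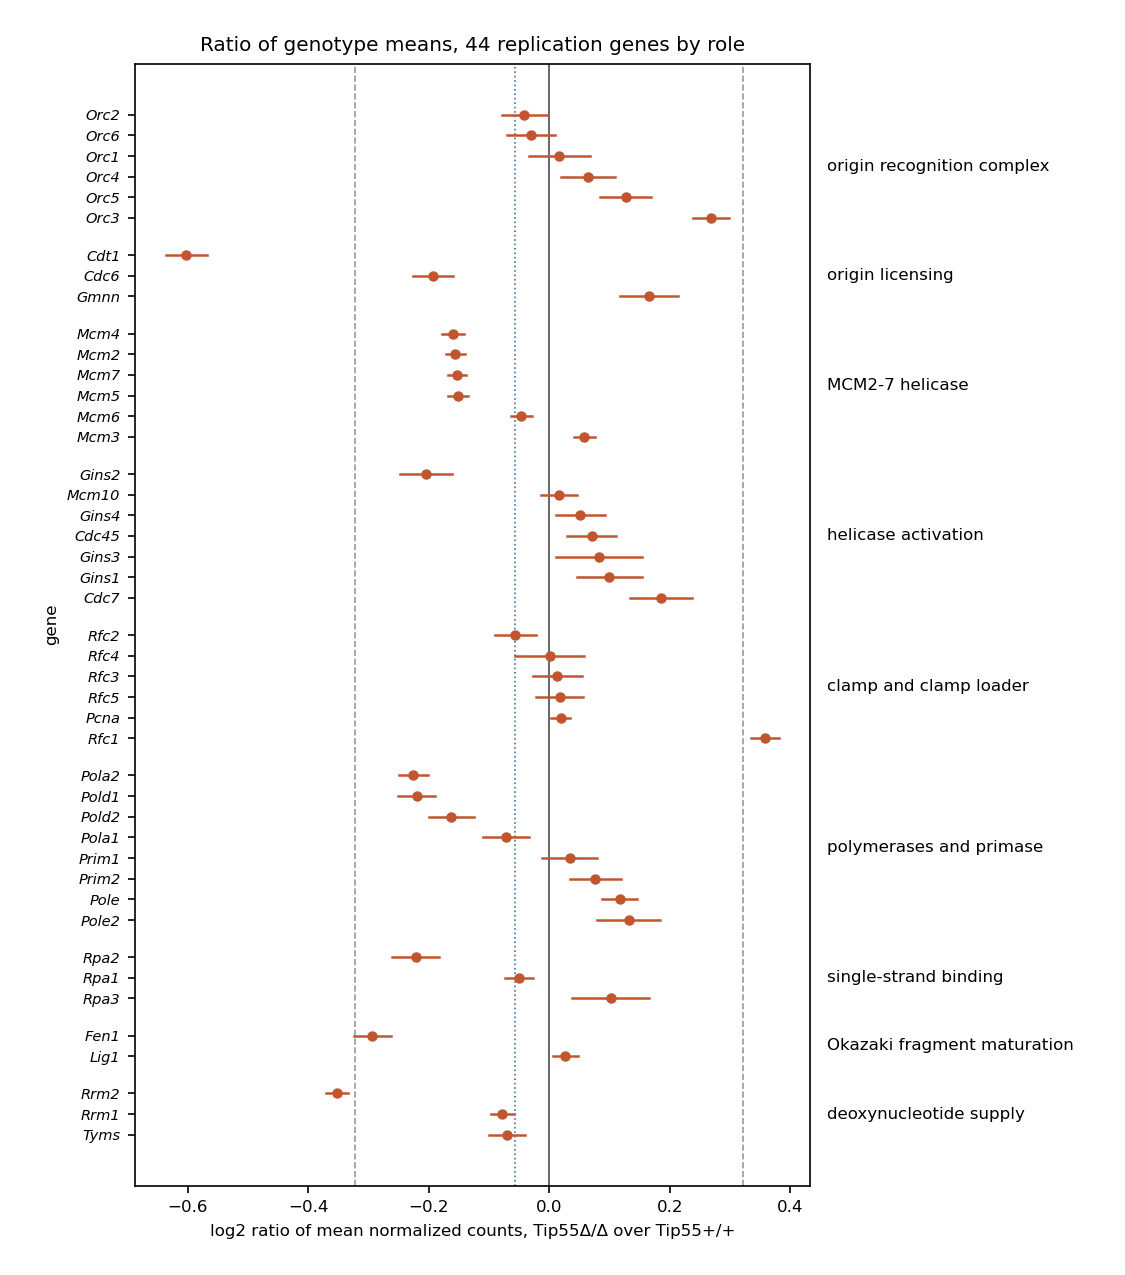
Log2 ratio of mean normalized counts, *Tip55*Δ/Δ over *Tip55*+/+, for the 44 replication genes by role. Points are ratios, bars the 95% counting intervals, dashed lines the bounds of the fold (a ratio of 0.8 and its inverse) and the dotted line the ratio that becomes 1 when both totals are made equal. *Cdt1* and *Rrm2* lie left of the bounds, *Rfc1* lies right of them, and *Mcm2*, *Mcm4*, *Mcm5* and *Mcm7* form a tight column.

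In the origin recognition complex, the ATPase that marks origins, no subunit rose or fell, and 4 of 6 ratios were over 1, which became 1 of 6 (*Orc3*) with the GC trend removed and 6 of 6 with equal totals. *Orc3* (chromosome 4 from 34570796 to 34614944, minus strand) was the most abundant by counts, with 5402 in *Tip55*+/+ against 6510 in *Tip55*Δ/Δ embryos, with a ratio of 1.21 (interval 1.18 to 1.23). *Orc5* (chromosome 5 from 22486485 to 22550429, minus strand) had 2909 and 3177 counts, a ratio of 1.09 (interval 1.06 to 1.12). The other 4 subunits, *Orc1*, *Orc2*, *Orc4* and *Orc6*, had ratios from 0.972 to 1.05. *Orc3* and *Orc5* are genes of low GC content (38.6% and 38.2%), and with the trend on GC content removed, as described below, their log2 ratios went from 0.27 to 0.13 and from 0.13 to −0.02. *Orc2* shares 29.8% of its exon bases with *Nif3l1*.

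Of the 3 licensing genes, *Cdt1* fell and *Cdc6* and *Gmnn* were not past the fold. *Cdt1*, which brings the helicase to origins, lies on chromosome 8 from 122568015 to 122573554 on the plus strand and fell from 5715 to 3764 counts, a ratio of 0.659 (interval 0.643 to 0.674), the lowest of the 44 genes. Geminin, encoded by *Gmnn* (chromosome 13 from 24751845 to 24761923, minus strand), binds *Cdt1* and blocks repeated licensing within a cycle. It had 2197 counts in *Tip55*+/+ against 2463 in *Tip55*Δ/Δ embryos, and its ratio was 1.12 (interval 1.08 to 1.16). The quotient of *Cdt1* over *Gmnn* counts does not change when all libraries of a genotype are scaled by a common factor. It was 2.60 in *Tip55*+/+ against 1.53 in *Tip55*Δ/Δ embryos, 0.587 of the wildtype value (interval 0.564 to 0.612). Intervals of quotients, here and below, are normal approximations on the log scale for counting error alone. *Cdc6*, the loading ATPase, had 4980 and 4356 counts and a ratio of 0.875 (interval 0.854 to 0.896). *Cdt1* was also lower with the GC trend removed, at a log2 ratio of −0.42 in place of −0.60, and *Gmnn* was at 0.18 in place of 0.16. Quotients are given without removal of the GC trend. These pairs were chosen after their values had been seen.

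The MCM2-7 helicase is a ring of 6 different subunits in equal number, each from its own gene. None of the 6 genes rose or fell, but 4 of them had nearly the same ratio: *Mcm4* 0.895, *Mcm2* 0.898, *Mcm7* 0.899 and *Mcm5* 0.900. With the GC trend removed these 4 were less alike, at log2 ratios of −0.20 for *Mcm4*, −0.10 for *Mcm2*, −0.09 for *Mcm5* and −0.07 for *Mcm7*. *Mcm7* (chromosome 5 from 138164583 to 138172422, minus strand), with the most counts of any replication gene, had 26560 in *Tip55*+/+ against 23883 in *Tip55*Δ/Δ embryos (interval of the ratio 0.890 to 0.908). *Mcm6* had a ratio of 0.968 (interval 0.956 to 0.980) and *Mcm3* one of 1.04 (interval 1.03 to 1.05). The intervals of these last 2 genes overlap neither each other nor those of the other 4. The quotient of *Mcm3* over *Mcm5* counts went from 0.892 to 1.03, a change of 1.16 (interval 1.14 to 1.18). The median log2 ratio of the 6 genes was −0.15, or −0.08 with the GC trend removed and −0.09 with equal totals, where the ratio of *Mcm6* became 1.01. *Mcm7* shares 12.6% of its exon bases with neighbours, among them *Ap4m1* and the microRNA genes *Mir25* and *Mir93*.

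None of the 7 activators of the helicase was past the fold. Their ratios were over 1 in 6 cases, with an interval that held 1 for *Mcm10*, and 3213 of the 7575 abundant genes had a ratio over 1. *Cdc7* (chromosome 5 from 106964322 to 106984432, plus strand) had 1906 counts in *Tip55*+/+ against 2167 in *Tip55*Δ/Δ embryos, with a ratio of 1.14 (interval 1.097 to 1.18). *Mcm10*, a scaffold of the fork on chromosome 2 from 4989714 to 5012791 (minus strand), had the most counts, 5866 and 5930, with a ratio of 1.01 (interval 0.990 to 1.03). *Cdc45*, *Gins1*, *Gins3* and *Gins4*, parts of the active helicase, had ratios from 1.04 to 1.07. *Gins2*, the remaining GINS subunit, had a ratio of 0.868 (interval 0.842 to 0.894). In the annotation used here, however, it shares 67.3% of its exon bases with *Gse1*, so that its value may hold reads of that gene.

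Of the clamp and its loader, the large subunit of the loader rose and the other 5 genes had ratios within 1.1-fold of 1. *Pcna*, the sliding clamp, on chromosome 2 from 132249162 to 132253314 (minus strand), had 20685 counts in *Tip55*+/+ against 20955 in *Tip55*Δ/Δ embryos, with a ratio of 1.01 (interval 1.002 to 1.024). *Rfc1*, the large subunit of replication factor C, on chromosome 5 from 65261850 to 65335670 (minus strand), rose from 8325 to 10669 counts, a ratio of 1.28 (interval 1.26 to 1.30). Its log2 ratio was 0.36, and 0.33 with the GC trend removed. *Rfc2*, *Rfc3*, *Rfc4* and *Rfc5*, which form the same pentamer with *Rfc1*, had ratios from 0.962 to 1.01. The quotient of *Rfc1* over *Pcna* counts went from 0.402 to 0.509, a change of 1.27 (interval 1.24 to 1.29).

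None of these 8 polymerase and primase genes was past the fold. Of polymerase ε, which copies the leading strand, *Pole* had a ratio of 1.08 (interval 1.06 to 1.11) and *Pole2* one of 1.096, while the small subunits *Pole3* and *Pole4*, which are not among the 44 genes, had 0.980 and 1.06. *Pole2* (chromosome 12 from 69201773 to 69228195, minus strand) had 1876 and 2056 counts (interval 1.06 to 1.14). Polymerase δ copies the lagging strand. *Pold1*, its catalytic subunit (chromosome 7 from 44532746 to 44548849, minus strand), had 6064 and 5207 counts, a ratio of 0.859 (interval 0.840 to 0.877), and *Pold2* had a ratio of 0.893. Its other subunits, outside the 44 genes, lay on the other side of 1, *Pold3* at 1.15 (interval 1.13 to 1.18) and *Pold4* at 1.28. *Pold1* and *Pold2* have the highest GC content of the 44 (61.0% and 58.7%), and with the GC trend removed their log2 ratios changed sign, from −0.22 to 0.06 and from −0.16 to 0.05. *Pola2* (chromosome 19 from 5940542 to 5964202, minus strand), a subunit of the polymerase α that begins each strand, had 9745 counts in *Tip55*+/+ against 8334 in *Tip55*Δ/Δ embryos, with a ratio of 0.855 (interval 0.841 to 0.870). Its log2 ratio of −0.23 became −0.24 with the GC trend removed. *Pola1* had a ratio of 0.951, and the primase genes *Prim1* and *Prim2* had 1.02 and 1.05.

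The 3 subunits of replication protein A, which coats single-stranded DNA, had different ratios. *Rpa1* (chromosome 11 from 75298166 to 75348324, minus strand) had 10103 and 9760 counts, a ratio of 0.966 (interval 0.951 to 0.982). *Rpa2* (chromosome 4 from 132768332 to 132778752, plus strand) had 3763 and 3227, a ratio of 0.857 (interval 0.834 to 0.881). *Rpa3* had a ratio of 1.07 (interval 1.03 to 1.12) and the lowest GC content of the 44 genes, 34.2%. With the GC trend removed its log2 ratio went from 0.10 to −0.11, and all 3 subunits were then under 0.

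Of the Okazaki fragment genes, *Lig1*, the ligase that joins the fragments, lies on chromosome 7 from 13277283 to 13311433 on the plus strand and had 12251 and 12478 counts, a ratio of 1.02 (interval 1.004 to 1.03). *Fen1*, the flap nuclease, on chromosome 19 from 10199132 to 10204169 (minus strand), had 6518 and 5318 counts, a ratio of 0.816 (interval 0.799 to 0.833), just short of the fold. In the annotation *Fen1* shares 84.2% of its exon bases with *Tmem258* and *Gm10143*, so that its value may hold reads of these genes. In all, 16 of the 44 genes share exon bases with another gene.

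The genes of deoxynucleotide supply all had ratios under 1. *Rrm2*, the small subunit of ribonucleotide reductase whose level follows S phase, lies on chromosome 12 from 24708241 to 24714146 on the plus strand. It fell from 18201 to 14248 counts, a ratio of 0.783 (interval 0.773 to 0.793). On the log2 scale this ratio was −0.35, −0.39 with the GC trend removed and −0.30 with equal totals, where *Rrm2* was not past the fold (ratio 0.815). *Rrm1*, the large subunit, had a ratio of 0.947 (interval 0.935 to 0.960), and *Tyms*, which makes thymidylate, one of 0.952 (interval 0.932 to 0.973). The quotient of *Rrm2* over *Rrm1* counts went from 1.23 to 1.01, a change of 0.827 (interval 0.811 to 0.842).

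Of 127 genes on 7 related lists, 18 fell (14.2%) and 2 rose (1.57%), against 11.0% and 3.83% of the abundant genes and 14.7% and 15.6% of all genes at a minimum of 10 counts. With the GC trend removed 18 were again lower, against 6.19% of the abundant genes and 10.8% of all genes at a minimum of 10 counts. The lists were written to set the 44 genes beside others of the same cell cycle steps. Not all of these calls held under other settings: with the GC trend removed the falls of *Cad*, *Ccne1* and *Plk1* and the rise of *Ccne2* ended short of the fold, and with equal totals the falls of *Asf1a*, *Ccne1*, *Cdkn1b*, *Fbxo5*, *Shmt1* and *Wee1* did. Other genes passed the fold only there: *Ccnb1*, *Prc1* and *Rbl1* (lower) and *Cdkn1a* and *Cdkn2b* (higher) with the GC trend removed, and *Atr* and *Rrm2b* (higher) with equal totals. Of 26 other fork genes, *Pold4*, a small subunit of polymerase δ, rose from 162 to 208 counts (ratio 1.28, interval 1.14 to 1.45) and none fell, with a median log2 ratio of 0.00. Of 12 chromatin genes coupled to replication, 2 fell: *Pclaf*, the Pcna-associated factor that the file lists as *2810417H13Rik*, from 10832 to 8058 counts (ratio 0.744, interval 0.732 to 0.756) and the histone chaperone *Asf1a* from 2541 to 1989 (ratio 0.783, interval 0.757 to 0.810), and the median log2 ratio was −0.13, or −0.06 with the GC trend removed. Of 22 other nucleotide synthesis genes 3 fell, with *Cad*, the enzyme that opens pyrimidine synthesis, at 0.748 (20494 to 15328 counts, interval 0.739 to 0.757) and the thymidine kinase *Tk1* at 0.763 (2379 to 1816 counts, interval 0.737 to 0.791) below *Shmt1* at 0.793, and the median was −0.09.

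Among the regulators of the passage from G1 to S phase, 6 of 25 genes fell (24.0%) and 1 rose, against 11.0% and 3.83% of the abundant genes, with a median log2 ratio of −0.16. Some of the 25, *E2f2* among them, had means under 1000 counts, and at a minimum of 10 counts the shares of all genes were 14.7% and 15.6%. *E2f2* fell from 549 to 365 counts (ratio 0.664, interval 0.614 to 0.717), and *Ccnd3*, which encodes cyclin D3, from 14500 to 10011 (ratio 0.690, interval 0.680 to 0.701). The other 4 were *E2f8* (0.746), *E2f7* (0.766), *Ccne1* (0.780) and *Fbxo5* (0.792), of which *E2f7* and *E2f8* encode repressors. *Ccne2*, the second cyclin E gene, rose from 2853 to 3600 counts (ratio 1.26, interval 1.23 to 1.30), but its log2 ratio of 0.34 was 0.16 with the GC trend removed. The quotient of *Ccne1* over *Ccne2* went from 1.84 to 1.14, a change of 0.618 (interval 0.595 to 0.641). The 2 genes differ in GC content (52.7% and 36.3%), and the log2 ratio of *Ccne1* went from −0.36 to −0.28 with the GC trend removed. *E2f1*, *E2f3* and *E2f4* had ratios from 0.963 to 0.988, whereas *E2f5* had 1.08 (interval 1.06 to 1.11) and *E2f6* 1.02 (interval 0.990 to 1.05).

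Of 7 CDK inhibitor genes, some of them with few counts, 3 fell, against 14.7% of all genes at a minimum of 10 counts. They were *Cdkn2d* (503 to 334 counts, ratio 0.665, interval 0.613 to 0.721), *Cdkn2c* (81.5 to 56.1, ratio 0.688, interval 0.560 to 0.838) and *Cdkn1b* (ratio 0.799). *Cdkn1a*, the p53 target encoding p21, had 729 and 853 counts, a ratio of 1.17 (interval 1.105 to 1.24). Its log2 ratio of 0.23 was 0.33 with the GC trend removed. The median log2 ratio of the 7 genes was −0.06, but 0.19 with the GC trend removed. Of 9 checkpoint genes *Wee1*, the kinase that holds *Cdk1* inactive, fell from 4173 to 3302 counts (ratio 0.791, interval 0.771 to 0.813) and none rose. The median log2 ratio of the 9 was 0.11, and was close to 0 with the GC trend removed. Of 26 mitosis genes 3 fell (11.5%, against 11.0% of the abundant genes): *Cdc20*, activator of the anaphase-promoting complex, from 10770 to 7380 counts (ratio 0.685, interval 0.674 to 0.697), *Cenpa*, the centromeric histone, from 5138 to 3530 (ratio 0.687, interval 0.6703 to 0.704), and *Plk1* (ratio 0.763). None rose, and the median log2 ratio was −0.13. *Mki67*, the proliferation antigen, had 33646 and 33341 counts, a ratio of 0.991.

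**Figure D3:**
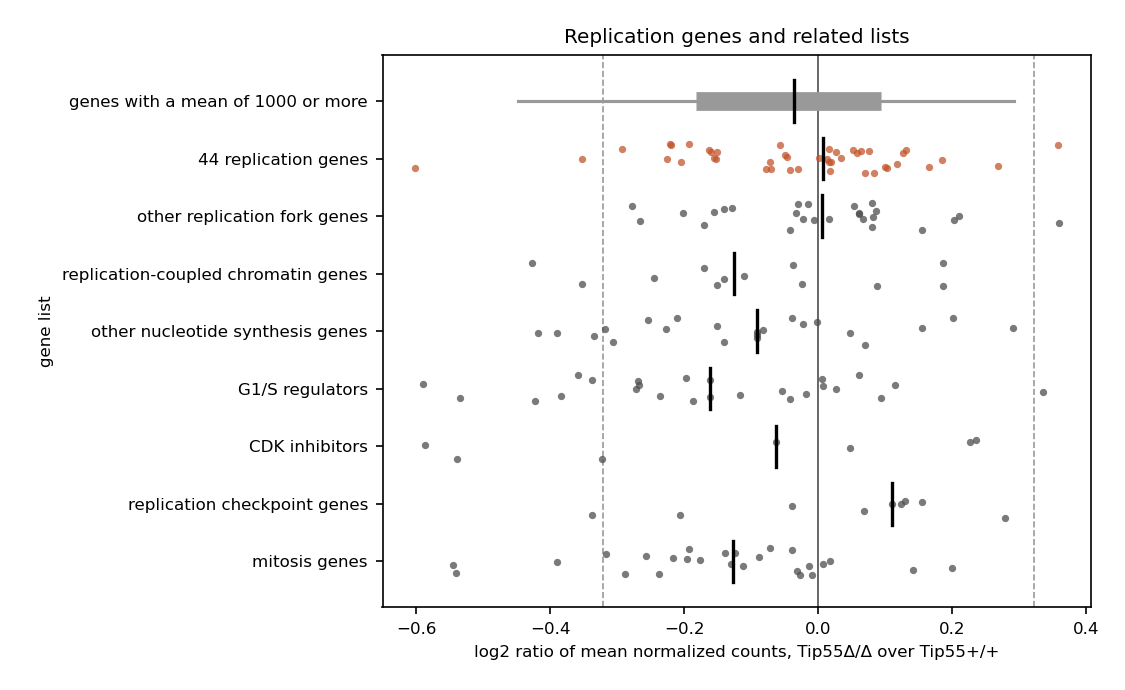
Log2 ratio of mean normalized counts, *Tip55*Δ/Δ over *Tip55*+/+, for each gene (points) of the 44 replication genes and 7 related lists, scattered vertically at random, with medians as black bars and the bounds of the fold as dashed lines. The grey box and line give the central 50% and the central 90% of abundant genes. The replication genes and the other fork genes centre near 0, and the medians of the other lists run from −0.16 for the G1/S regulators over −0.13 for mitosis genes and −0.13 for chromatin genes (−0.06 with the GC trend removed), −0.09 for nucleotide synthesis and −0.06 for the CDK inhibitors (0.19 with the GC trend removed) to 0.11 for the checkpoint genes (near 0 with it removed).

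The ratio of a gene went with the base composition of its transcript, among the replication genes as among all genes. Spearman's rho between log2 ratio and GC content was −0.46 across the 44 genes and −0.48 across 7545 abundant genes of known GC content. Genes are not independent replicates, and they share the same 6 libraries. Of the 22 replication genes with the lower GC content, 14 had a ratio over 1, and of the 22 with the higher GC content, 9 did. When a smooth curve on GC content was subtracted, the sign of the log2 ratio changed for 10 of the 44 genes and the median became −0.04. *Cdt1* and *Rrm2* stayed past the fold on the lower side and *Rfc1* on the upper. Among all abundant genes the removal of the trend took the share lower from 11.0% to 6.19% and left the share higher at 3.82%. The part of base composition in the single ratios was not tested.

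**Figure D4:**
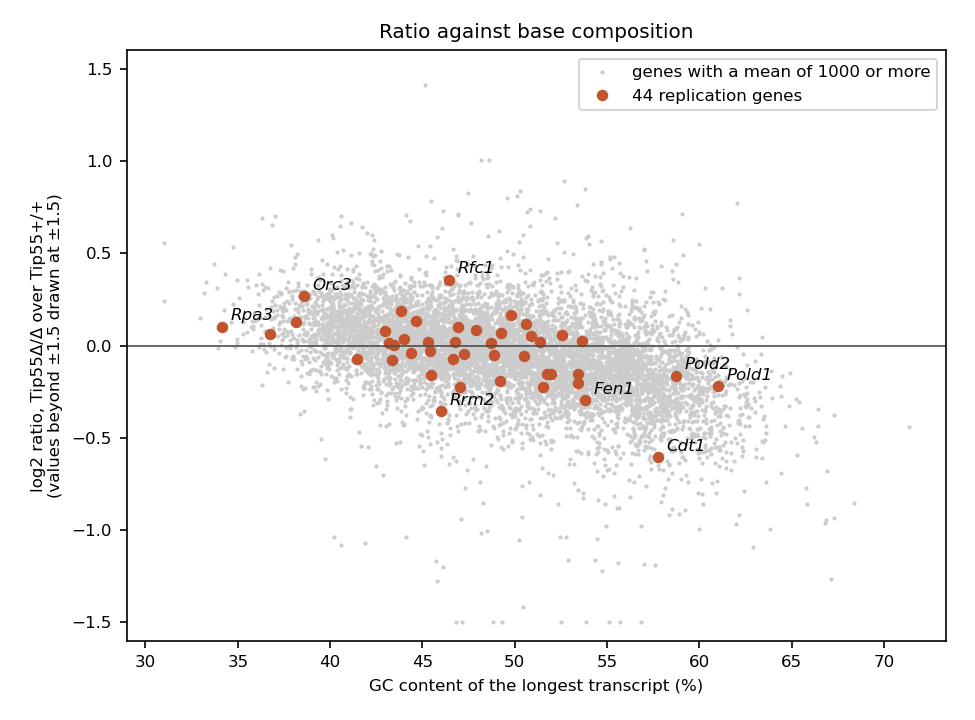
Log2 ratio of mean normalized counts, *Tip55*Δ/Δ over *Tip55*+/+, against the GC content of the longest transcript in percent, for abundant genes (grey) and the 44 replication genes (orange). Ratios decline toward high GC content in both, and *Cdt1*, *Rrm2* and *Rfc1* lie toward the edge of the grey points at their GC content.

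Transcript levels of markers of several cell types also differed between genotypes. All 9 measured markers of primitive red cells fell, and their summed level went from 130358 to 9037 counts, with *Hba-x*, an embryonic alpha globin, as the most abundant. The 9 visceral endoderm markers fell as well, from a sum of 177927 to 110263 counts, led by *Apob*. The red cell list took 0.265% of all counts in *Tip55*+/+ against 0.0191% in *Tip55*Δ/Δ embryos, and the visceral endoderm list 0.362% and 0.234%. Of 6 measured trophoblast markers 3 fell and 1 rose, with a sum of 6262 and 6239 counts that was nearly all *Hand1*, also a gene of the embryo. Of 7 markers of maternal decidua 2 fell and 2 rose, and their sum went from 3982 to 3424 counts with *Des*, also a muscle gene, in the lead. That sum was mostly *Des* and *Cryab*, which are not particular to decidua. The decidual prolactin gene *Prl8a2* fell from 503 to 27.6 counts (ratio 0.0548), whereas the granzyme genes *Gzmf* (1.65 to 24.98 counts) and *Gzmg* (1.31 to 19.9 counts) rose from very few counts. No measured marker was at 0 in either genotype.

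For tissues of the embryo proper, 7 neural tube markers summed to 18597 and 18310 counts, with *Nes* in the lead (1 rose, 2 fell). The 7 cardiac markers went from 46661 to 59551 counts, led by *Actc1* (3 rose, 2 fell). The 6 of paraxial mesoderm went from 6627 to 6211, led by *Meox1* (3 rose, 2 fell). Of all genes at a minimum of 10 counts, 15.6% rose and 14.7% fell. With the GC trend removed the falls of *Nkx2-5* (log2 ratio −0.526 to −0.048), *Meox1* (−0.386 to −0.315) and *Tcf15* (−0.448 to −0.010) ended short of the fold. *Myl7* then passed it on the upper side (0.275 to 0.383), as it did with equal totals (0.333). *Pax6* rose and *Neurog2* and *Tubb3*, markers of neurons in formation, fell. The part of these marker differences in the ratios of the replication genes was not tested.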

How the data were processed

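RNA had been isolated from embryos at embryonic day 8.5, enriched for mRNA and sequenced from libraries that are not strand specific, in the BGI-seq format. Per the labels and the study's methods, RSEM was used by the authors on reads aligned to mm10, and EBSeq for the comparison of genotypes. Versions and the gene annotation are not given in the sources used here. The deposited table gives for each of 20280 genes the ratio of *Tip55*Δ/Δ over *Tip55*+/+ in a direct and a posterior form, beside posterior probabilities of the authors' comparison. The probabilities and the posterior ratio are not reported.

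Both ratios were used only to solve for the mean normalized count of each genotype. The direct ratio adds 0.01 to both means, and the posterior ratio adds an offset of 0.514, found from 29 genes at 0 in *Tip55*Δ/Δ and 29 at 0 in *Tip55*+/+. A ratio of recovered means equals the authors' direct ratio by construction. Rounding left an error of at most 0.443% in the 44 genes; for 8 other genes it exceeded 5%, and they were left out. The means are on the scale of the size factors used by the authors, which are unknown. A test of the recovery on simulated data was run, but its outcome is not given here.

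Exact Clopper-Pearson intervals (95%) used counts summed over 3 libraries per genotype. They cover counting error only. A ratio of at most 0.8 or at least its inverse stood in for a call, and no p-value was computed. Counts per kb used the longest transcript in GENCODE vM21 (GRCm38), to which 19996 symbols were matched, 706 through an older symbol. For the trend on GC content a lowess curve (span 0.3) was drawn through the log2 ratios of 12306 genes whose mean reached 100. Promoters are RefSeq windows on GRCm38.p6.

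The genes, the lists and the comparisons were chosen with earlier results of these data known. Both means, the ratio and its interval were given for the 6 highest and 6 lowest ratios, for the gene with the most counts in each role and for *Kat5*, and from each list the 2 largest changes past the fold in each direction. Other genes named, and the pairs set as quotients, were chosen after their values were seen. Alternatives were a fold of 1.1 or 1.5, a minimum mean of 100 or 1000, centring on the median of all genes, removal of the GC trend, scaling to equal totals, and each gene left out in turn. *Hba-a1* and *Tpbpa* were not analysed here. The intervals came from scipy 1.17.1, the lowess curve from statsmodels 0.14.6 and the figures from matplotlib 3.10.9, under Python 3.11.15 with pandas 2.3.3 and numpy 2.4.6.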

Additional observations from a re-analysis of the deposited data

How the results depend on the processing

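With a fold of 1.1 in place of the inverse of 0.8, 4 of the 44 replication genes were higher and 13 lower, against 18.6% higher and 31.8% lower of the abundant genes, those with means from 1000 counts, and with 1.5 the numbers were 0 and 1 (*Cdt1*). On the 7 related lists 16 genes were higher and 53 lower past 1.1-fold, and 0 and 2 past 1.5-fold. Scaling to equal totals, chosen after seeing the data, gave 2 higher and 1 lower replication gene, 4 higher and 12 lower genes on the related lists and a median log2 ratio of 0.0648 for the replication genes. The abundant genes were then 6.68% higher and 7.42% lower. Equal totals also left 28 of the 44 ratios over 1, with 23 intervals over and 14 under 1. With each replication gene left out in turn the median lay between 0.00105 and 0.0131, and with the GC trend removed it was −0.04, so the side of 0 on which it lies depends on the processing. With the GC trend removed the replication genes past the fold remained 1 higher and 2 lower, and the related lists had 3 higher and 18 lower genes, 15 of the latter shared with those reported. E2F letters upstream of the start alone were found for 25% of the replication genes with a window.

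Of 110 values under the alternatives, for single genes, for roles and for the shares of all genes past the fold, 57 were classed as moved from the value reported. For a single gene, moved means outside its counting interval, which the shares of all genes do not have. No gene past the fold changed direction. No paired analysis was possible because the table holds no values per library, and for the same reason leaving out a library was not run. The depth of single libraries is unknown, so its limits are given for counting error alone.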
